A study of Mus musculus with 3 samples.

Results

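The genes described here are 10 keratin genes of the skin: the activation keratins Krt6a, Krt6b, Krt16 and Krt17, the basal keratins Krt5, Krt14 and Krt15, and the suprabasal keratins Krt1, Krt10 and Krt77. They were taken by symbol, and all 10 were found among 53 keratin genes and 32285 genes in all. They were measured in single cells, with a droplet method that reads the 3′ end of each mRNA, in dorsal skin of wild type C57BL/6J mice, labelled female and 8 weeks old, in 3 libraries with 1 library per condition. CON was not irradiated. UV was exposed on alternate days over 12 weeks to UVA (0.60 mW/cm2) together with UVB (3.5 mW/cm2). Rux received the same light and, directly after each exposure, an ointment with 1.5% ruxolitinib, an inhibitor of the kinases JAK1 and JAK2. The authors' group scheme lists vehicle, the ointment without the drug, for both CON and UV, which the sample labels do not name. Skin was taken 24 h after the last exposure. How many mice went into a library is not given in the sources used here.

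Keratins form the intermediate filaments of epithelial cells, and each filament needs a type II and a type I keratin. Basal cells of the epidermis use Krt5 with Krt14, and cells that leave the basal layer switch to Krt1 with Krt10. Krt6a, Krt6b, Krt16 and Krt17 are used in parts of the hair follicle at rest and appear in the epidermis between follicles after wounding or stress, which gave them the name of activation or wound keratins.

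All 10 genes lie on the minus strand of the GRCm38 genome. The type II genes are on chromosome 15 and have 9 exons each, with Krt6b at 101676023 to 101680287, Krt6a at 101689910 to 101694307, Krt5 at 101707070 to 101712898, Krt1 at 101845426 to 101850794 and Krt77 at 101858731 to 101869705. The type I genes are on chromosome 11 and have 8 exons each, with Krt10 at 99385254 to 99389364, Krt15 at 100131758 to 100135928, Krt14 at 100203162 to 100207548, Krt16 at 100246091 to 100248902 and Krt17 at 100256217 to 100261029. Krt6a and Krt6b are close paralogs, but 0 of the 451 windows of 50 bases in the last 500 bases of either transcript occurred in a transcript of another gene. Krt14 and Krt17 shared 9.53% of these windows with each other. Krt16 shared 16.9% with other genes, most of them with Gm11597, so the counts of Krt14, Krt16 and Krt17 are uncertain for reads from those stretches.

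RefSeq promoter entries of GRCm38.p6 matched 4 of the 10 genes, Krt5, Krt10, Krt14 and Krt77. The Krt14 entry starts 1518 bases inside the GENCODE gene and is not shown. The 250 bases before the start of the others are shown because Krt10 and Krt77 are suprabasal genes that differed widely between libraries and Krt5 is a basal gene that differed little. Capitals mark matches, on either strand, to any of 5 motifs, namely the TATA box TATAAA, the AP-1 motif TGANTCA, the AP-2 motif GCCNNNGGC, the STAT motif TTCNNNGAA and the GC box GGGCGG.
Krt5, chr15:101712906-101713155, minus strand: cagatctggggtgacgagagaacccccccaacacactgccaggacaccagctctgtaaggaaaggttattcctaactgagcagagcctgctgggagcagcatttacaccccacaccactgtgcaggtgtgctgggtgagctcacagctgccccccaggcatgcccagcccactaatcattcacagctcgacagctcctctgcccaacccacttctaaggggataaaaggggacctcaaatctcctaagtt
Krt10, chr11:99389365-99389614, minus strand: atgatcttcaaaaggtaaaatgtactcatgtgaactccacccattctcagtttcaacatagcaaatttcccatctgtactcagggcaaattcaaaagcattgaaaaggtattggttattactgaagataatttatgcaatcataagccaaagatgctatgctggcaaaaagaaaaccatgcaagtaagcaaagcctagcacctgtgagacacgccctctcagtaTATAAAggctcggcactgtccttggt
Krt77, chr15:101869706-101869955, minus strand: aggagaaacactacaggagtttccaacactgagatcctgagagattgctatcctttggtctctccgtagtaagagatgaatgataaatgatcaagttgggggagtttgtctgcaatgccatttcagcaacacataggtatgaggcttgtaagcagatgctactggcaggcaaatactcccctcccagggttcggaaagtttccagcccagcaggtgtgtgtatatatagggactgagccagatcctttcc
The one match was the TATA box of Krt10, 26 to 21 bases before the start. Of all 32851 promoters in the table, 12.4% held TATAAA in the same window, 6.75% the AP-1 motif, 13.7% the AP-2 motif, 7.02% the STAT motif and 32.7% the GC box.

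After filters on cells, 10777 cells of CON, 10231 of UV and 9299 of Rux were kept, from 131570327 to 165337289 deposited UMIs per library, a UMI being the tag of 1 captured molecule. The labels give female mice, but over the kept cells the Y-linked gene Ddx3y stood at 110 to 121 CPM (the UMIs of a gene as a share of all UMIs, in the usual CPM scaling) and Xist, which female cells express, at 0.0921 to 0.119 CPM in every library, against that label. Pairs of libraries shared 28 to 50 cell barcodes. Cells were clustered without any keratin gene, so the members did not choose the cells. Epithelial cells, named from markers such as Cdh1 and Dsp, numbered 3739 in CON, 2023 in UV and 1617 in Rux and fell into 22 clusters. Of these, 11 were named after the markers that led them and 11 stayed unnamed and are called by number and leading genes.

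With 1 library per condition no difference has a replicate check, and none was tested. The intervals given are exact, at 95%, and cover counting error only. A value past 2-fold is counted as a size. The assay counts molecules at their 3′ end, so levels of different genes were compared in CPM with no division by length. Keratin RNA was read in other cells as well and is taken here as free RNA. VEC-like cells (vascular endothelium), which should lack keratins, held 149.5, 42.2 and 58.6 CPM of Krt14 and 23.8, 1.49 and 0.723 CPM of Krt1 in CON, UV and Rux, and this background was highest in CON for all members but Krt6a and Krt6b. In CON 1 VEC-like cell held 24.9% of the Krt14 UMIs, 1 held 24.4% of those of Krt5 and 1 held 30.5% of those of Krt15. The source of these UMIs was not tested.

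The sizes of the clusters bear on every total over epithelial cells. In CON, UV and Rux, basal-like cells (cluster 3) numbered 480, 20 and 86, suprabasal-like cells (cluster 11) 263, 6 and 17 and granular-like cells (cluster 21) 16, 13 and 20. Upper follicle-like cells (cluster 8) numbered 243, 80 and 83. Cluster 5 (led by Pthlh and Wfdc18) numbered 107, 117 and 200. Cluster 0, dividing-like by its markers but with the antibody genes Igkc and Ighm among its leading genes, numbered 758, 92 and 21, and cluster 4, also dividing-like, 2, 292 and 208. A cluster that is mostly of 1 library may be that library and not a cell type. In a total over cells, fewer cells of a type and less RNA per cell cannot be told apart.

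Over all epithelial cells the members went different ways. Krt6a and Krt6b were higher in UV than in CON, Krt16 and Krt17 were lower, the basal keratins were lower by less than 2-fold, and Krt1, Krt10 and Krt77 were far lower. Rux stood above UV for all members but Krt6b. The median log2 ratio of UV over CON was 0.46 (0.42 to 0.49) for the activation keratins, −0.33 (−0.35 to −0.32) for the basal keratins and −2.74 (−2.79 to −2.70) for the suprabasal keratins, beside −0.05 over 8704 genes that averaged 10 CPM or more. The sign of the first median rests on Krt6b, which had 5 UMIs in CON and was under that minimum, and the 3 activation keratins that met it had a median of −0.59. For Rux over UV the medians were 0.27 (0.25 to 0.29), 0.47 (0.46 to 0.49) and 1.71 (1.67 to 1.74), beside −0.02 over 8675 genes. With the cluster composition of CON held, over the clusters with at least 20 cells in both libraries, which leaves out suprabasal-like cells, the UV over CON medians were 0.48, 0.079 and −0.090, and Krt5, Krt14 and Krt10 turned to 0.079, 0.31 and 0.46. Basal-like cells, where Krt10 was higher in UV, entered this setting with 20 UV cells, and their part in its value was not tested. In all 9 clusters with at least 50 cells in both libraries Krt10 was lower in UV, from −3.07 to −0.12. The lowest value, in cluster 17, rested largely on a single cell of CON, and the interval of cluster 5 reached above 0 (−1.14 to 0.024). In CON the CPM intervals of Krt10 in clusters 5 and 13 overlapped that of VEC-like cells. In cluster 0 it went from 42.9 to 25.1 CPM, beside 28.7 and 6.25 CPM in VEC-like cells. The part of this background was not tested. In UV over CON, 2 members lay past 2-fold upward, of which Krt6b was under that minimum, and 3 downward, where 1.37% of all genes tested lay past 2-fold upward and 1.07% downward. In Rux over UV, 3 members lay past 2-fold upward and 0 downward, where 0.692% and 0.911% of all genes did.

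**Figure D1:**
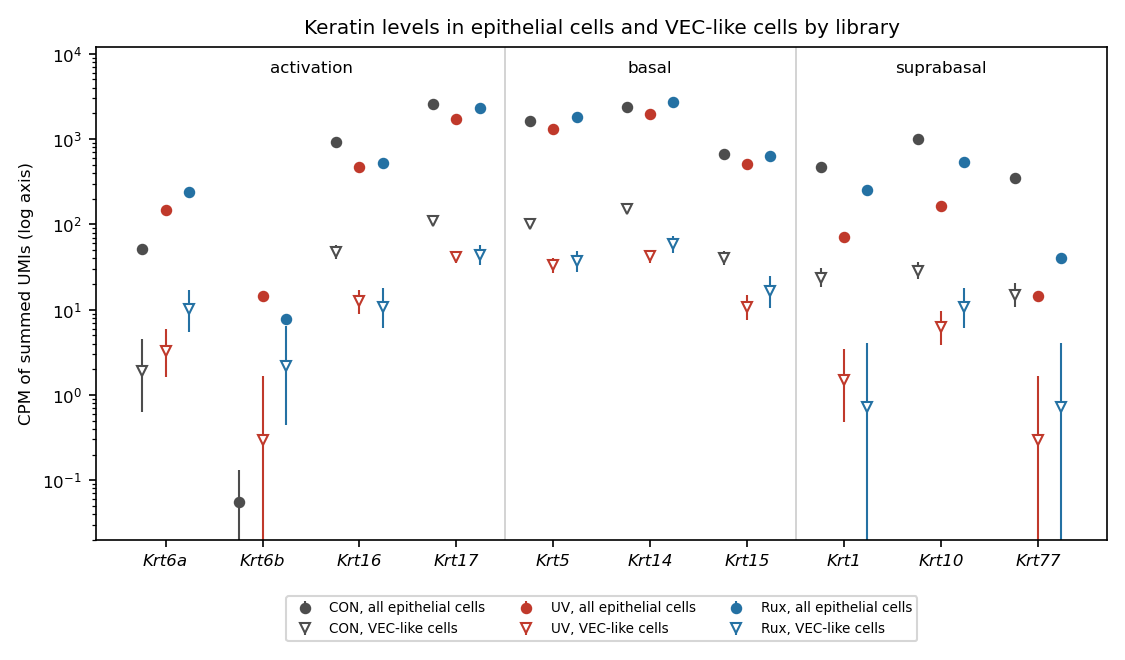
CPM of summed UMIs (log axis) of the 10 keratins in all epithelial cells (filled circles) and in VEC-like cells (open triangles, taken as the background of free RNA) in CON, UV and Rux. Bars are exact 95% Poisson intervals and values of 0 are not drawn. Krt6a stands at 51.7, 146 and 242 CPM and Krt1 at 476, 71.1 and 249.5 CPM in epithelial cells of CON, UV and Rux.

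Krt6a, the type II activation keratin, stood at 51.7 CPM (50.2 to 53.2) in CON, 146 CPM (143 to 149) in UV and 242 CPM (237 to 246) in Rux. The order was CON, UV, Rux with no overlap of the intervals. Krt6a was highest in cluster 5 in every library, among clusters with at least 50 cells. Cluster 5 made up 2.86%, 5.78% and 12.4% of epithelial cells in CON, UV and Rux. The part of cluster sizes in this order was not tested. The log2 ratio was 1.50 (1.45 to 1.55) for UV over CON and 0.72 (0.68 to 0.77) for Rux over UV. With each cell thinned to 2000 UMIs, 6.59%, 13.6% and 19.5% of epithelial cells held a Krt6a UMI in CON, UV and Rux, against 1.06%, 1.17% and 1.29% of VEC-like cells. Without thinning the epithelial shares were 20.9%, 38.6% and 46.8%, with median depths of 18146, 21234 and 20723 UMIs per epithelial cell and 5424, 5823 and 6520 per VEC-like cell.

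Krt6b, its paralog, was read in few cells. Epithelial cells held 5 Krt6b UMIs in CON, 782 in UV and 329 in Rux, or 0.0560, 14.3 and 7.80 CPM. The log2 ratio of UV over CON was 7.86 (6.77 to 9.62) and that of Rux over UV −0.87 (−1.07 to −0.69). A single cell carried 43.4% of the UMIs in UV and 19.5% in Rux, so both ratios rest on few cells. Without the suprabasal-like and granular-like clusters the ratio of Rux over UV turned to 2.83.

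Krt16, a type I partner of Krt6a, stood at 924 CPM (918 to 930.2) in CON, 473 CPM (467 to 478) in UV and 519.6 CPM (513 to 527) in Rux. It was highest in CON, opposite to Krt6a, with a log2 ratio of −0.97 (−0.99 to −0.95) for UV over CON and 0.14 (0.11 to 0.16) for Rux over UV. Krt17, the other type I activation keratin, stood at 2602 CPM (2591 to 2612) in CON, 1732 CPM (1721 to 1743) in UV and 2288 CPM (2273 to 2302) in Rux. It was lowest in UV, with log2 ratios of −0.59 and 0.40, and neither gene passed 2-fold in either comparison.

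The UMIs of these genes came from different clusters in each library. Cluster 0 held 48.4%, 8.84% and 2.68% of the epithelial Krt16 UMIs and 33.9%, 9.81% and 2.29% of the Krt17 UMIs in CON, UV and Rux, as its cell number went from 758 to 92 to 21. Krt6a UMIs came from cluster 5 (led by Pthlh and Wfdc18), with 31.1%, 21.2% and 41.1%, and from cluster 1 (led by Aldh3a1 and Ifi202b), with 11.6%, 30.6% and 15.6%. Krt6b UMIs came mostly from granular-like cells in UV, with 82.9%. In Rux, 45.6% came from granular-like cells and 29.8% from cluster 1.

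**Figure D2:**
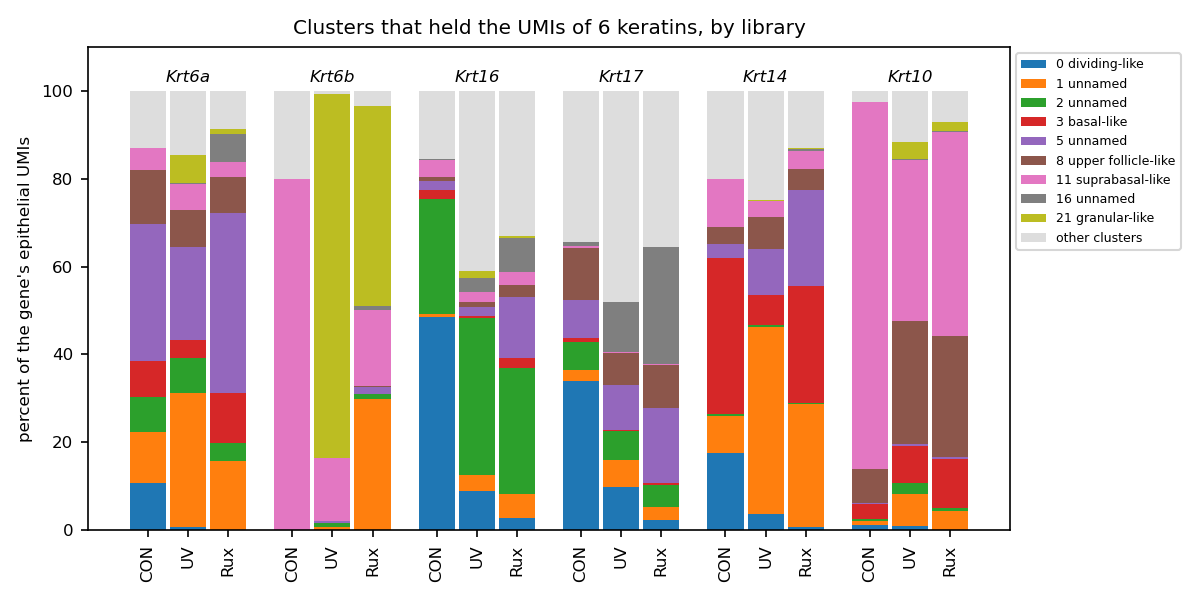
Percent of the epithelial UMIs of Krt6a, Krt6b, Krt16, Krt17, Krt14 and Krt10 that came from each cluster, as stacked bars for CON, UV and Rux; light grey sums the clusters not listed. Cluster 0 gives 48.4% of Krt16 in CON and 8.84% in UV, and suprabasal-like cells give 83.5% of Krt10 in CON and 36.4% in UV.

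Among clusters of at least 50 cells, Krt6a was highest in cluster 5 in every library, at 681 CPM (646 to 717) in CON, 1031 CPM (982 to 1081) in UV and 1343 CPM (1302 to 1384) in Rux, where 1 cell held 31.4% of the CON UMIs. Clusters 14 (led by Robo2 and Il31ra), 8 and 1 followed in CON with 186, 161 and 138 CPM, and the intervals of neighbours in this order overlapped. In UV clusters 8 and 1 followed with 485 and 447 CPM, again with overlapping intervals. In Rux basal-like cells came second with 631 CPM.

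For ratios within clusters, a cluster entered with at least 50 cells in both libraries. Its level in CPM also had to exceed the VEC-like background in at least 1 of them. A level exceeded the background where its whole interval lay above that of VEC-like cells in the same library. VEC-like cells were shallower than epithelial cells (medians of 5424 and 18146 UMIs in CON), and the filter did not correct for depth. The shares of all genes given beside these ratios cover genes that averaged 10 CPM or more in that cluster. Members had no such minimum, but needed at least 10 UMIs over both libraries. Krt6a entered in 8 clusters for UV over CON and lay past 2-fold upward in 3 and downward in 0. In cluster 1 the log2 ratio was 1.69 (1.56 to 1.83), where 2.18% of all genes were past 2-fold upward and 1 cell held 39.6% of the CON UMIs. In upper follicle-like cells it was 1.59 (1.43 to 1.76), where 2.99% of all genes were. In sebaceous-like cluster 17 it was 3.01 (1.96 to 4.47), where 2.73% of all genes were, on 7 UMIs in CON and 58 in UV, 39.7% of the latter from 1 cell, and Krt6a entered there through UV alone.
For Rux over UV, Krt6a entered in 10 clusters and lay past 2-fold upward in 2 and downward in 0. These were cluster 12 (bulge and outer sheath-like) at 1.48 (1.24 to 1.71) and cluster 16 (led by Tm4sf1 and Gjb2) at 3.22 (2.73 to 3.80), where 2.62% and 1.7% of all genes were past 2-fold upward. One cell held 29.0% of the Rux UMIs in cluster 16. In clusters 1 and 8 the Rux value was near that of UV, with log2 ratios of −0.09 and −0.09, and 1 cell held 62.2% of the Rux UMIs in cluster 8. Over the 10 clusters the median was −0.09, with the lowest value, −0.71, in cluster 13. The interval lay above 0 in 3 of the 10 and below 0 in 3, so the higher total of Rux was not shared by every cluster.

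In basal-like cells Krt6a stood at 56.5 CPM (51.0 to 62.5) in CON, 663 CPM (591 to 740.2) in UV and 631 CPM (595 to 669) in Rux. The UV and Rux intervals overlapped and both lay above CON. After thinning, 5.85% (3.92% to 8.34%) of these cells held a Krt6a UMI in CON, 55.0% (31.5% to 76.9%) in UV and 52.9% (41.8% to 63.9%) in Rux. UV had 20 such cells. Krt6b had 0 UMIs there in every library, which allows up to 0.549, 7.81 and 2.04 CPM in CON, UV and Rux. Krt16, at 239, 284 and 264 CPM, and Krt17, at 305, 265 and 217 CPM, differed far less than Krt6a.

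In granular-like cells Krt6a, Krt6b and Krt16 were read mainly in the irradiated libraries. Krt6b had 0, 648 and 150 UMIs in CON, UV and Rux, from 16, 13 and 20 cells, and the 0 in CON allows up to 31.6 CPM. Krt6a had 0, 497 and 104 UMIs and Krt16 4, 386 and 115. One cell held 52.3% of the Krt6b and 73.4% of the Krt6a UMIs in UV. The median cell had 1177 CPM of Krt6b in UV and 1018 in Rux, so the reads were not those of that cell alone. The median depth of these cells was 4579.5, 2115 and 2069.5 UMIs. Krt1 had 3, 397 and 249 UMIs in the same cells, so these cells of CON were low in Krt1 too. The type II members together had 60, 1548 and 554 UMIs there, so most of those in CON were of members other than Krt1, Krt6a and Krt6b.

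In suprabasal-like cells Krt6a stood at 37.1, 1612 and 584 CPM and Krt16 at 521, 1921 and 1044 CPM in CON, UV and Rux. Krt6b stood at 0.653, 385 and 93.4 CPM. These 3 genes were highest in UV and lowest in CON, while Krt17, at 179, 30.9 and 241 CPM, was not. UV had 6 and Rux 17 of these cells, and 1 cell held 42.9% of the Krt6a and 64.4% of the Krt16 UMIs in UV and 53 of the 57 Krt6b UMIs in Rux.

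Of the clusters with at least 50 cells, cluster 2 (led by Tchh, an inner root sheath protein) had the highest Krt16 in CON and UV. Krt16 stood there at 3874 CPM (3823 to 3926) and 1205 CPM (1181 to 1230.2). In Rux cluster 2, at 1001 CPM (977 to 1026), and cluster 5, at 983 CPM (948 to 1018), overlapped. Krt16 entered for UV over CON in 9 clusters and lay past 2-fold upward in 0 and downward in 5. The log2 ratio was −1.09 in cluster 0, −1.68 in cluster 2, −1.38 in cluster 5, −3.09 in cluster 10 (led by Cldn10 and Lef1) and −1.57 in cluster 13 (led by S100a3), where 0.318%, 2.53%, 4.25%, 2.67% and 5.62% of all genes lay past 2-fold downward. Clusters 12 and 1 went the other way, at 0.89 (0.73 to 1.06) and 0.26 (0.11 to 0.41), so the direction was not shared by every cluster. Krt16 in Rux over UV lay past 2-fold upward in 2 of 10 clusters, cluster 5 at 1.68 (1.54 to 1.82) and cluster 15 (led by Fhod3) at 1.70 (1.40 to 2.03), where 0.638% and 2.39% of all genes were.

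Krt17 was highest in cluster 5 in CON, at 9512 CPM (9380.5 to 9644), among clusters with at least 50 cells. In UV and Rux it was highest in cluster 16, at 10364 CPM (10169 to 10561) and 11523 CPM (11382 to 11665). Cluster 16 had 9 cells in CON and was not ranked there. In UV over CON Krt17 lay past 2-fold downward in 3 of 9 clusters and upward in 0, with −1.69 in cluster 2, −1.12 in cluster 10 and −1.16 in cluster 13. From UV to Rux it stayed within 2-fold in all 10 clusters that entered, from −0.48 in cluster 1 to 0.65 in cluster 15. This range was narrower than that of Krt6a, from −0.71 to 3.22, or that of Krt16, from −0.27 to 1.70.

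**Figure D3:**
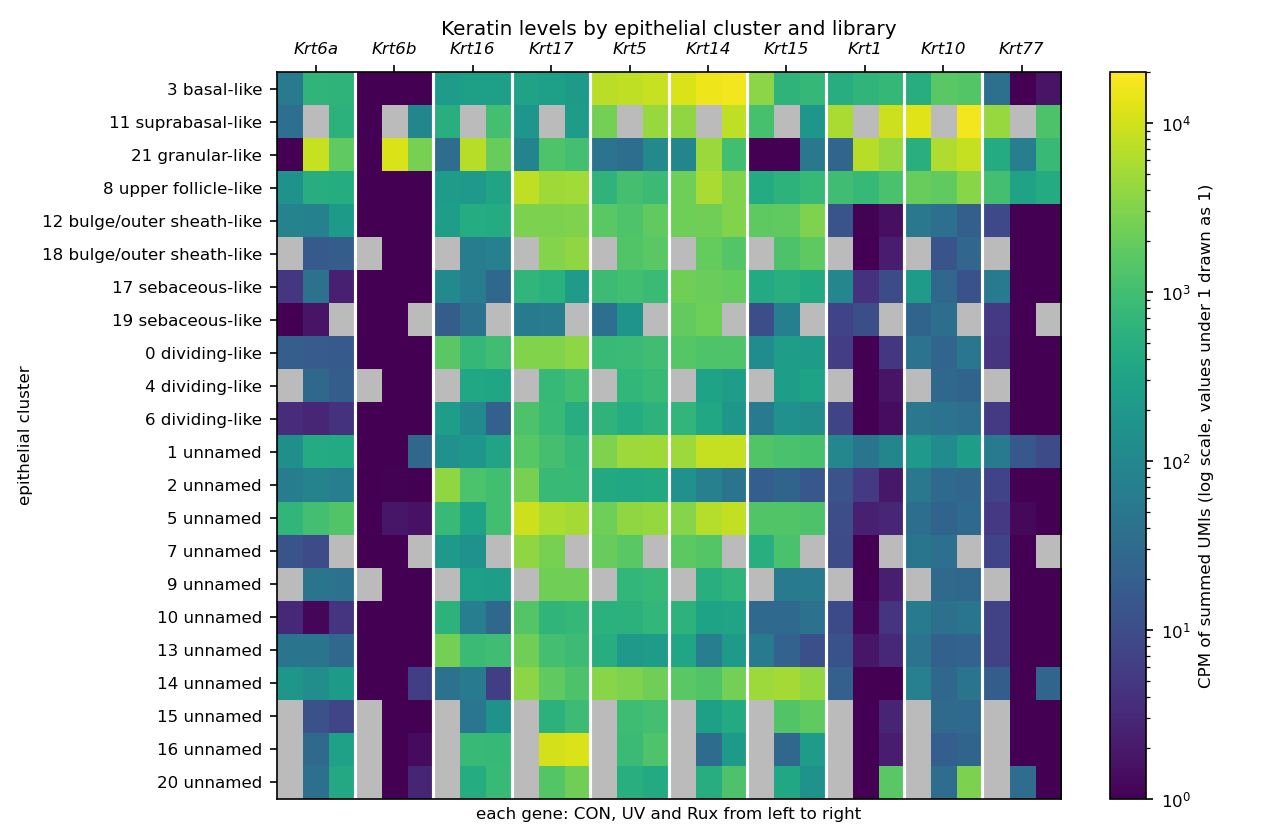
CPM of summed UMIs (log color scale, values under 1 drawn as 1) of the 10 keratins in the 22 epithelial clusters, with CON, UV and Rux from left to right for each gene; grey marks clusters with fewer than 10 cells in that library. Krt14 reaches 16999 CPM in basal-like cells of Rux, Krt10 12177 CPM in suprabasal-like cells of CON and Krt17 11523 CPM in cluster 16 of Rux.

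Krt5 and Krt14, the basal pair, differed less between libraries. Krt5 stood at 1648, 1308 and 1818 CPM and Krt14 at 2403, 1959 and 2736 CPM in CON, UV and Rux. The log2 ratios of UV over CON were −0.33 and −0.29, and those of Rux over UV 0.47 and 0.48, so UV was lowest for both. In basal-like cells Krt5 stood at 7268, 7639.6 and 8674 CPM and Krt14 at 11353, 15256 and 16999 CPM. Both were lowest in CON there, unlike in the total over all epithelial cells.

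Within clusters Krt14 went both ways. In UV over CON it lay past 2-fold upward in 2 of 9 clusters, upper follicle-like cells at 1.30 (1.25 to 1.34) and cluster 5 at 1.04 (1.00 to 1.09), and downward in 2, cluster 2 from 151 to 75.5 CPM and cluster 13 at −2.36 (−2.64 to −2.10). The CPM interval of Krt14 in cluster 2 of CON overlapped that of VEC-like cells, which stood at 149.5 CPM (135 to 165). Krt5 lay past 2-fold in cluster 13 alone, at −1.20 (−1.37 to −1.03). From UV to Rux, Krt5 stayed within 2-fold in all 10 clusters that entered. Krt14 was past 2-fold upward in clusters 13 and 16, where 1 cell held 65.8% and 71.6% of the Rux UMIs.

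Krt15, a type I keratin of basal cells and of the follicle bulge, stood at 659, 515 and 639 CPM over all epithelial cells. In basal-like cells it differed more, at 3602 CPM (3556 to 3647) in CON, 627 CPM (557 to 702) in UV and 720.0 CPM (681 to 760.2) in Rux. UV and Rux overlapped and both lay below CON, while Krt5 and Krt14 were higher in the same cells. After thinning, 91.0% (88.1% to 93.4%) of basal-like cells held a Krt15 UMI in CON, 45.0% (23.1% to 68.5%) in UV and 56.5% (45.3% to 67.2%) in Rux. In bulge and outer sheath-like cluster 12 Krt15 stood at 1695, 1813 and 2936 CPM, so it was not lower there.
Among clusters of at least 50 cells, Krt15 was highest in cluster 14 in CON, at 4729 CPM (4593 to 4868), and in cluster 12 in UV and Rux. In UV over CON it lay past 2-fold upward in cluster 0, at 1.03 (0.91 to 1.14), and downward in cluster 13, at −1.49 (−2.03 to −0.99). From UV to Rux it lay past 2-fold upward in cluster 16 alone, at 2.97, where 1 cell held 61.7% of the Rux UMIs.

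The suprabasal keratins had the widest differences of the members tested over all epithelial cells. Krt1, the type II keratin of the spinous layer, stood at 476 CPM (471 to 480.5) in CON, 71.1 CPM (68.9 to 73.4) in UV and 249.5 CPM (245 to 254) in Rux. Krt10, its type I partner, stood at 999.5 CPM (993 to 1006) in CON, 164 CPM (160.2 to 167) in UV and 534 CPM (527 to 541) in Rux. Krt77, a type II keratin of suprabasal cells and sweat ducts, stood at 346 CPM (342 to 349.5) in CON, 14.4 CPM (13.4 to 15.5) in UV and 40.1 CPM (38.2 to 42.1) in Rux. For all 3 genes CON was highest and UV lowest, with log2 ratios of −2.74, −2.61 and −4.58 for UV over CON and 1.81, 1.71 and 1.48 for Rux over UV. One cell held 20.2% of the Krt1 UMIs and 1787 of the 8942 Krt10 UMIs in UV.

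The number of suprabasal-like cells moved with these totals. They gave 81.5% of the Krt1, 83.5% of the Krt10 and 84.6% of the Krt77 UMIs in CON, from 263 cells, and 46.1%, 36.4% and 30.2% in UV, from 6 cells. Within these cells Krt1 stood at 5656, 6154 and 9568 CPM and Krt10 at 12177, 11199 and 17106 CPM in CON, UV and Rux. Krt77 stood at 4264, 818 and 1247 CPM, so among the 3 it was the one that was also far lower within the type. The 6 UV cells give these levels little weight.
Upper follicle-like cells, with at least 80 cells in every library, gave a like contrast. Krt1 stood at 974, 753 and 1153 CPM and Krt10 at 1967, 1809 and 3405 CPM, with log2 ratios of UV over CON of −0.37 (−0.47 to −0.27) and −0.12 (−0.19 to −0.05). Krt77 stood at 1034, 297 and 451 CPM, with −1.80 (−1.95 to −1.65), where 2.88% of all genes lay past 2-fold downward. After thinning, 68.5%, 38.5% and 30.8% of these cells held a Krt77 UMI, against 3.45%, 0.234% and 0.645% of VEC-like cells.

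In basal-like cells Krt10 stood at 472 CPM (455 to 488) in CON, 1589.7 CPM (1478 to 1708) in UV and 1391 CPM (1337 to 1446) in Rux, and Krt1 at 478, 646 and 738 CPM. Both were higher in the irradiated libraries, while Krt77, at 38.8, 0 and 1.66 CPM, was lower. One cell held 28.6% of the Krt10 UMIs in UV and 24.3% in Rux. In most other clusters the CPM intervals of Krt1 and Krt77 did not lie above those of VEC-like cells. Of 14 clusters with at least 50 cells, the interval of each gene lay above in 5 in CON and in 3 in UV.

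**Figure D4:**
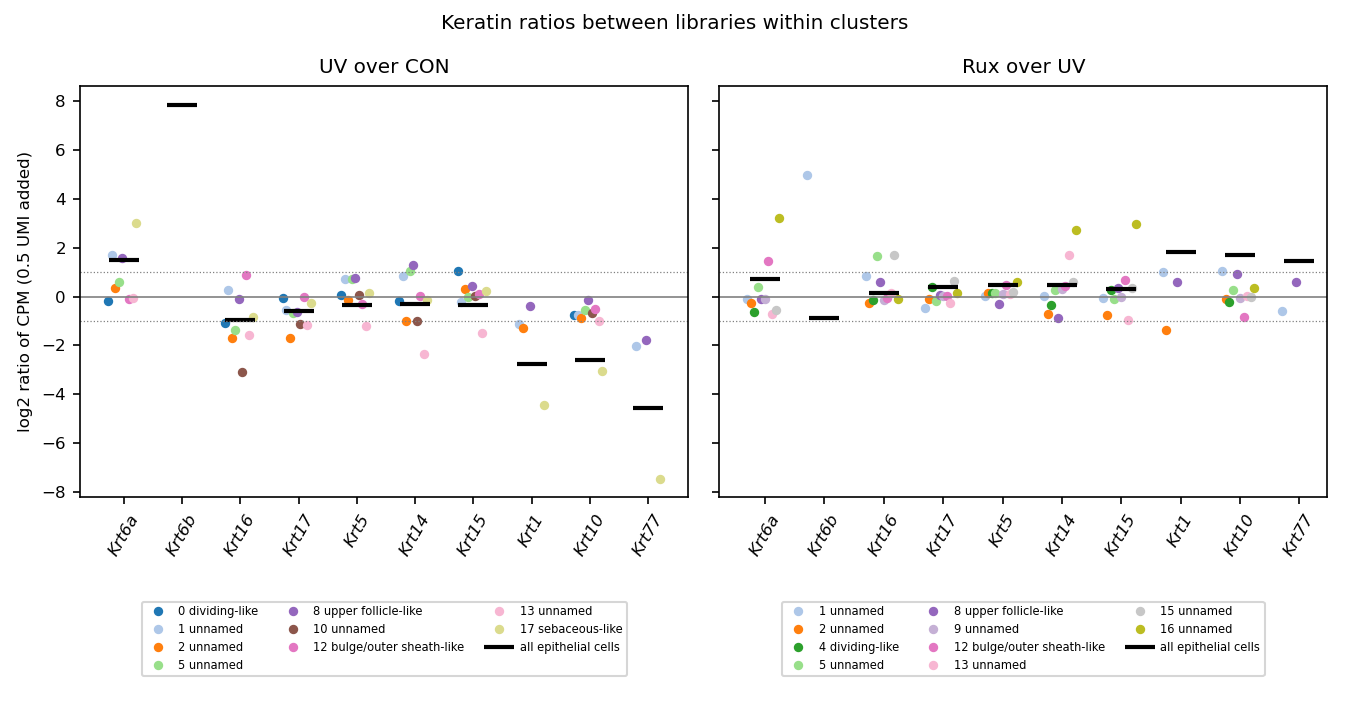
Log2 ratio of CPM (0.5 UMI added) of the 10 keratins, UV over CON on the left and Rux over UV on the right, with 1 point per cluster that had at least 50 cells in both libraries and a CPM interval above that of VEC-like cells in at least 1; black bars are all epithelial cells and dotted lines mark 2-fold. For Krt1 and Krt10 the bars of UV over CON lie at −2.74 and −2.61, while upper follicle-like cells lie at −0.37 and −0.12.

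In these counts a member that exceeded the background only in the library where it was higher had entered through that library. This held for 1 of 6 upward and 2 of 20 downward values of UV over CON, all in cluster 17, and for 2 of 10 upward and 1 of 1 downward values of Rux over UV. Read by cluster, the members moved together most in cluster 13 (led by S100a3 and Dsg4). In cluster 13 for UV over CON, 0 of 7 members lay past 2-fold upward and 6 downward (Krt16, Krt17, Krt5, Krt14, Krt15, Krt10), where 2.44% and 5.62% of all genes did. In cluster 2, 0 of 8 members lay past 2-fold upward and 4 downward (Krt16, Krt17, Krt14, Krt1), where 2.05% and 2.53% of all genes did. In cluster 10, 0 of 6 members lay past 2-fold upward and 2 downward (Krt16, Krt17), where 3.87% and 2.67% of all genes did. These clusters thus held members past 2-fold downward and none upward. In CON the CPM intervals of Krt10 in cluster 13 and of Krt14 in cluster 2 overlapped those of VEC-like cells. Krt1 in cluster 2 of CON, at 12.6 CPM, stood below the 23.8 CPM of VEC-like cells. Krt1 in cluster 2 averaged under 10 CPM in both comparisons, so it is not among the genes of those shares. Median depth in CON was 23266 UMIs in cluster 2, 17424 in cluster 13 and 5424 in VEC-like cells. No correction was made for this. Krt14 in cluster 13 stood at 352 CPM in CON and 68.3 in UV, beside a VEC-like background of 149.5 and 42.2 CPM, whose part in these values was not tested.
Other clusters were mixed between UV and CON. In upper follicle-like cells, 2 of 9 members lay past 2-fold upward (Krt6a, Krt14) and 1 downward (Krt77), where 2.99% and 2.88% of all genes did. In cluster 1, 1 of 9 members lay past 2-fold upward (Krt6a) and 2 downward (Krt1, Krt77), where 2.18% and 1.86% of all genes did, and in cluster 5, 1 of 7 members lay past 2-fold upward (Krt14) and 1 downward (Krt16), where 3.87% and 4.25% of all genes did. Cluster 17 is sebaceous-like, and there 1 of 9 members lay past 2-fold upward (Krt6a) and 3 downward (Krt1, Krt10, Krt77), where 2.73% and 3.64% of all genes did, with 1 cell holding 85.5% of the Krt1, 84.4% of the Krt10 and 92.2% of the Krt77 UMIs in CON. Krt6a entered there through UV alone, and Krt1 and Krt77 through CON alone. In cluster 0, 1 of 7 members lay past 2-fold upward (Krt15) and 1 downward (Krt16), where 0.991% and 0.318% of all genes did. Cluster 12 held all its members within 2-fold, as 0 of 7 members lay past 2-fold upward and 0 downward, where 1.79% and 2.02% of all genes did.

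From UV to Rux fewer members moved past 2-fold. In cluster 1, 3 of 10 members lay past 2-fold upward (Krt6b, Krt1, Krt10) and 0 downward, where 0.627% and 1.04% of all genes did. Krt6b, with 4 and 98 UMIs, entered there through Rux alone, so its upward value was partly set by the filter. In cluster 16, 3 of 7 members lay past 2-fold upward (Krt6a, Krt14, Krt15) and 0 downward, where 1.7% and 2.35% of all genes did, and Krt14 entered through Rux alone. Most Rux UMIs of Krt14 and of Krt15 there came from a single cell, and so did a smaller part of those of Krt6a. Cluster 2 was the one with a member past 2-fold downward, as 0 of 8 members lay past 2-fold upward and 1 downward (Krt1), where 0.294% and 0.588% of all genes did, and 1 cell held 82.1% of its Krt1 UMIs in UV, through which alone it entered. A single member lay past 2-fold in clusters 5, 12, 13 and 15. In cluster 5, 1 of 7 members lay past 2-fold upward (Krt16) and 0 downward, where 0.638% and 2.24% of all genes did, and in cluster 12, 1 of 7 members lay past 2-fold upward (Krt6a) and 0 downward, where 2.62% and 4.54% of all genes did. In cluster 13, 1 of 7 members lay past 2-fold upward (Krt14) and 0 downward, where 2.26% and 2.15% of all genes did, and in cluster 15, 1 of 7 members lay past 2-fold upward (Krt16) and 0 downward, where 2.39% and 2.66% of all genes did. Krt14 in cluster 13 rested mostly on a single cell of Rux. Clusters 4, 8 and 9 held none, and in cluster 8, 0 of 9 members lay past 2-fold upward and 0 downward, where 1.87% and 2.17% of all genes did. In cluster 4, 0 of 7 members lay past 2-fold upward and 0 downward, where 0.285% and 0.495% of all genes did, and in cluster 9 (led by Gpnmb and Foxq1), 0 of 7 members lay past 2-fold upward and 0 downward, where 0.821% and 0.466% of all genes did.

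The summed type II members over the summed type I members gave 0.332, 0.321 and 0.351 in CON, UV and Rux over all epithelial cells, a narrow range beside the shifts of single genes. Basal-like cells gave 0.491, 0.497 and 0.513. Cluster 2 gave 0.0720, 0.211 and 0.254, with its lower Krt16 and Krt17 in UV and Rux. Other keratins that can pair with these genes are not in the sums.

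In single cells thinned to 2000 UMIs, partners of the suprabasal and basal pairs were often read together. Of cells with a Krt1 UMI, 72.1%, 73.1% and 75.9% in CON, UV and Rux also held Krt10, against 11.1%, 6.20% and 7.73% of the other cells. These shares were alike although the Krt1 cells numbered 520, 52 and 87. Of cells with Krt5, 85.1%, 62.6% and 66.1% held Krt14, against 54.4%, 37.9% and 32.4% of the others. Of cells with Krt77, 63.8%, 31.8% and 57.9% held Krt10, against 14.05%, 7.42% and 10.3%.
Over all epithelial cells the activation keratins were less tied to each other. Of cells with Krt6a, 42.9%, 35.6% and 41.3% held Krt16, against 37.3%, 31.9% and 29.3% of the others, and the intervals were apart in Rux alone. Krt17 was held by 81.6%, 73.0% and 70.3% of Krt6a cells and by 74.2%, 66.6% and 66.6% of the others, apart in CON alone. Krt1 was held by 12.2%, 8.52% and 10.6% of Krt6a cells and by 14.1%, 1.69% and 4.23% of the others, so the shares were apart in UV and Rux and overlapped in CON. Within cluster 1, Krt16 was held by 31.0% and 43.2% of Krt6a cells in UV and Rux, against 11.7% and 15.9% of the others. These intervals were apart, as were those of cluster 0 in CON, while those of the other clusters compared overlapped. Cells of 1 library share its free RNA, so these shares describe the libraries.

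**Figure D5:**
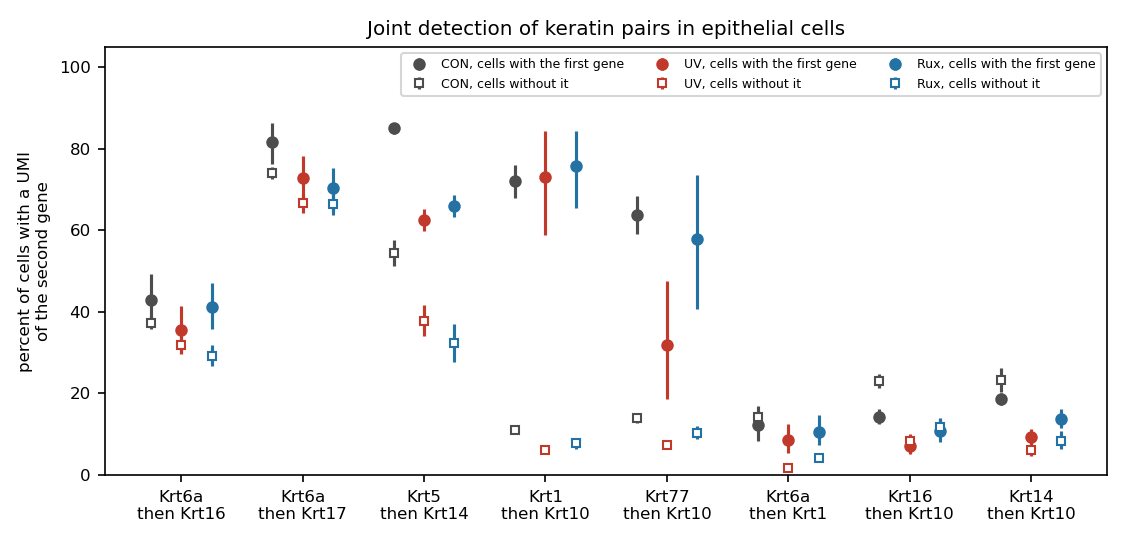
Percent of epithelial cells, thinned to 2000 UMIs, that held a UMI of the second gene of a pair among cells with the first gene (filled circles) and among cells without it (open squares), in CON, UV and Rux; bars are exact 95% Clopper-Pearson intervals. Krt10 is held by 72.1%, 73.1% and 75.9% of Krt1 cells, while Krt16 is held by 42.9%, 35.6% and 41.3% of Krt6a cells and by 37.3%, 31.9% and 29.3% of the others.

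Over 40 pairs of cluster and library with at least 50 cells, the members were compared by the Pearson r of log2(CPM + 10), given as a description because clusters of 1 library share its depth and background. Krt1 and Krt10 had r = 0.99, Krt5 and Krt14 0.82, and Krt5 and Krt15 0.78. Krt6a had 0.56 with Krt5, 0.35 with Krt17 and 0.12 with Krt16. Krt16 had 0.21 with Krt17 and −0.52 with Krt15. The activation keratins were thus less alike in pattern than the partners of the other groups.
Among 6644 genes that averaged 20 CPM or more over these pairs, those most like Krt6a were Eea1 (0.81), Dhx32, Tom1l2, Fam83b and Slc25a13 (0.79). Among those most like Krt16 were Grpel2 (0.87), Sfn, which encodes 14-3-3 sigma, Zdhhc21 and Csnk1d (0.78). Those most like Krt17 were Fzd3 (0.83), a Wnt receptor, BC016579, Fam167a, Alcam and Gstm5 (0.74). For Krt6b they were Ascc1 (0.47), Cstdc5, Ei24, Gdi2 and Pmp22 (0.39), which is weak, as Krt6b was near 0 in most of these clusters.

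Other genes around the keratins were read as 4 lists over all epithelial cells. A gene entered with an average of 10 CPM or more over both libraries, so a gene could enter through the library where it was high, and each count is also given for genes with at least 10 UMIs over both libraries. Under the minimum of 10 CPM, 1.37% of all genes lay past 2-fold upward and 1.07% downward in UV over CON, and 0.692% and 0.911% in Rux over UV. Under the minimum of 10 UMIs, 11.2% of all genes lay past 2-fold upward and 4.22% downward in UV over CON, and 3.48% and 7% in Rux over UV.
Of 14 other epithelial keratins, 4 averaged 10 CPM or more, and 2 of these lay past 2-fold upward in UV over CON. These were Krt75, a keratin of the follicle's companion layer, from 26.9 to 178 CPM, and Krt23, from 8.70 to 31.0 CPM, which met the minimum through UV alone. Krt78, singled out after its values were seen, went from 8.43 to 0.219 CPM and did not meet it. With at least 10 UMIs, 4 of 13 lay past 2-fold upward and 2 downward, and the median turned from 0.73 to −0.058, so the list had no direction that held under both minima. In Rux over UV, 0 of 4 lay past 2-fold, and with at least 10 UMIs 2 of 13 upward and 0 downward.
Of 32 activation and wound genes, 21 entered in UV over CON, with 4 past 2-fold upward and 0 downward and a median of 0.34. Slpi, a secreted protease inhibitor, went from 49.5 to 186 CPM, and Areg, a ligand of the EGF receptor, from 52.6 to 168 CPM. Plaur, the urokinase receptor, went from 49.0 to 108 CPM. Ivl, a precursor of the cornified envelope, went from 6.95 to 16.3 CPM and entered through UV alone. With at least 10 UMIs, 5 of 30 lay past 2-fold upward and 2 downward, with a median of 0.28. In Rux over UV, 1 of 20 lay past 2-fold upward, Sprr1b, a cornified envelope protein, from 13.1 to 32.5 CPM, with a median of 0.09. With at least 10 UMIs it was 6 of 31 upward and 2 downward.

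Of 26 regulators of keratin genes, such as Trp63, Klf4 and Stat3, 0 lay past 2-fold in either comparison, near the share over all genes at 10 CPM or more. Their median was −0.10 in UV over CON and 0.00233 in Rux over UV. Of 22 genes for anchors and partners of keratin filaments, 21 entered in UV over CON, with 2 past 2-fold upward and 1 downward and a median of −0.05. Tchh went from 30.6 to 151 CPM and Pkp2, a desmosome protein, from 6.504 to 14.2 CPM. Flg, whose product bundles keratin filaments in the granular layer, went from 17.9 to 2.27 CPM. Pkp2 entered through UV alone and Flg through CON alone. With at least 10 UMIs, 2 of 22 lay past 2-fold upward and 1 downward. In Rux over UV, 1 of 20 lay past 2-fold upward, Tchh, from 151 to 332 CPM, and with at least 10 UMIs 2 of 22.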

How the data were processed

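The authors deposited 1 matrix of raw UMI counts per library, made with Cell Ranger against mm10 from 10x Genomics 3′ v3.1 libraries. The labels and methods give version 6.1.2 and the matrix headers 7.0.0. From these counts, cells under 200 genes or over 10% mitochondrial UMIs were dropped, and doublets were removed at 0.8% per 1000 deposited cells (923 to 1269 per library). Cells were clustered in Seurat 5.3.0 (R 4.3.3) on 2000 variable genes with 30 components at a resolution of 1.5, and epithelial cells again with 20 components at 1.0. Keratin and keratin-associated genes, 42 and 46 of the variable genes, were left out, and clusters were named from fixed non-keratin markers. UMIs were summed per cluster and library, scaled to CPM, and compared as log2 ratios with 0.5 UMI added (Python 3.11.15, scipy 1.17.1). Named genes were the members, list genes past 2-fold (at most 4 per list and direction) and the 5 genes most like each activation keratin. One gene that this rule names is not reported here. On simulated counts for UV over CON (8703 genes, 200 changed by 2-fold), the direction was right for 100% of the changed genes, and 95.45% of the intervals covered the simulated ratio. This checks only how the ratios and counting intervals are computed. It cannot speak to differences between mice or libraries, as each condition was 1 library. The members and lists were chosen with earlier results of these data known. Gene positions are from GENCODE M21. Ruxolitinib was not given without irradiation in the samples used here.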

Additional observations from a re-analysis of the deposited data

Results flagged for a closer look

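Krt14 and Krt15 moved in opposite directions in different clusters between UV and CON, each condition being 1 library, and the difference between clusters was not tested. The log2 ratio of Krt14 was 1.30 (1.25 to 1.34) in upper follicle-like cells and −2.36 (−2.64 to −2.10) in cluster 13 (led by S100a3 and Dsg4). That of Krt15 was 1.03 (0.91 to 1.14) in cluster 0 and −1.49 (−2.03 to −0.99) in cluster 13. In cluster 13 both genes were low, with 551 and 148 UMIs of Krt14 and 98 and 48 UMIs of Krt15 in CON and UV. VEC-like cells, which should lack keratins, held 149.5 and 42.2 CPM of Krt14, beside 352 and 68.3 CPM in cluster 13. Median depth in CON and UV was 5424 and 5823 UMIs in VEC-like cells and 17424 and 19853 in cluster 13, with no correction made. The part of this VEC-like background in the cluster 13 values was not tested.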

How the results depend on the processing

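Each value here is a median log2 ratio over a group of keratins in all epithelial cells unless said otherwise. Over all retained cells of every lineage, the activation, basal and suprabasal medians were 0.014, −0.78 and −3.17 for UV over CON and −0.067, 0.12 and 1.32 for Rux over UV. With the composition of CON held, over 14 of 22 clusters, the basal and suprabasal medians of UV over CON were 0.079 and −0.090, and Krt10, Krt5 and Krt14 turned from −2.61, −0.33 and −0.29 to 0.46, 0.079 and 0.31. For Rux over UV, over 13 clusters, the 3 medians were 0.22, 0.11 and 0.40. This setting leaves out suprabasal-like cells by its construction. For UV over CON it holds basal-like cells, with 20 cells in UV. In all 9 clusters with at least 50 cells in both libraries Krt10 was lower in UV than in CON. The interval of cluster 5 reached above 0, and in CON the CPM intervals of Krt10 in clusters 5 and 13 overlapped that of VEC-like cells. Without the suprabasal-like and granular-like clusters, a setting chosen after seeing the data, UV over CON gave 0.31, −0.28 and −1.60, and Rux over UV 0.64 for the activation and 1.51 for the suprabasal keratins. With equal weight per cell, UV over CON gave 0.57, −0.64 and −2.39, and Rux over UV 0.58 for the basal and 1.51 for the suprabasal keratins. With a stricter cell filter of 500 genes and 5% mitochondrial UMIs, the basal and suprabasal medians of UV over CON were −0.30 and −2.87, and the activation and suprabasal medians of Rux over UV 0.24 and 1.87. Median-of-ratios scaling gave −0.36 for the basal keratins in UV over CON and 0.32, 0.53 and 1.76 for Rux over UV. Subtracting the background gave −0.28 for the basal keratins, and keeping doublets −2.80 for the suprabasal keratins, both in UV over CON. The other 29 medians moved by less than the counting interval. Of the medians, 2 changed sign, the basal one of UV over CON with the composition of CON held and the activation one of Rux over UV over all retained cells. Among the values for single genes, pairs and lists, 149 stayed within it, 233 moved outside it and 1 was classed as reversed, so most did not stay within it. Of those that did not, 9 changed sign. These were the 3 values above, Krt6b in Rux over UV with the composition of CON held (1.82), with equal weight per cell (0.21) and without the suprabasal-like and granular-like clusters (2.83), Krt16 (−0.19) and Krt15 (−0.030) in Rux over UV over all retained cells, and the median of the other epithelial keratins in UV over CON with at least 10 UMIs. The first 3 settings change the composition of the cells, and the cause of the differences was not tested in any setting. No paired analysis was possible because each condition is 1 library with no replicate number, and for the same reason no library could be left out.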
